A study of Mus musculus with 8 samples.

Results

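The 38 genes described here encode the enzymes that make nucleotides and the one-carbon units they need. They were listed by name for their place in these pathways, with earlier results of these data known: 8 genes of serine synthesis and folate one-carbon metabolism, 14 of purine synthesis and salvage, 4 of pyrimidine synthesis and 12 of deoxynucleotide (dNTP) supply. All 38 were found among the 38918 gene rows of the deposited table. All 38 also reached 1 CPM (library-scaled reads) in at least 1 library, as did 10850 genes in all.

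RNA came from mouse BMiFLT3 (15-3) cells, a pro-B line of B-lineage acute lymphoblastic leukaemia origin. The cells carried a retroviral construct and overexpressed the Krüppel-like zinc-finger factor Klf2, or blue fluorescent protein (BFP) as the control. The column names of the deposited table carry BFP for the Klf2 group too, so both constructs may express it. Poly(A) RNA of each group was sequenced in 4 lanes. On average the lanes differed by about sampling noise on uniquely placed reads, and by somewhat more on all exon reads. Each group was therefore taken as 1 library, and no test of the conditions could be made.

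Cells build purines stepwise on a phosphoribosyl pyrophosphate (PRPP) scaffold to reach IMP, from which AMP and GMP are made, while the pyrimidine ring is built first and then joined to PRPP. Serine passes its side-chain carbon to folate in the cytosol or in mitochondria, and these one-carbon units are used for the purine ring and for thymidylate. Ribonucleotide reductase turns ribonucleotides into deoxynucleotides, and in lymphoid progenitors, which divide fast, these routes are coupled to the S phase of the cell cycle.

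The Klf2 library held 30835450 exon reads and the BFP library 30133978, with between 7682298 and 7741626 per lane in Klf2 and between 7506567 and 7588695 in BFP. Klf2 itself was at 113 CPM in the Klf2 library and at 10.1 CPM in BFP, a ratio of 11.1 (9.93 to 12.6). Of 12 pro-B markers, 11 were found and 7 reached 1 CPM in each library, with a sum over the 11 of 3388 CPM in Klf2 and 3048 CPM in BFP. Of the 7, the ratio had an interval above 1 for 2 and below 1 for 5. Over all genes that reached 1 CPM these shares were 37.1% and 37.3%. The median ratio of the 7 markers was 0.939. Those present included Cd79a, Cd79b, Vpreb1, Igll1, Pax5 and Il7r, whereas Kit, Dntt, Rag1 and Rag2 lay below 1 CPM in both libraries. Myeloid markers summed to 12.5 CPM in Klf2 and 16.3 CPM in BFP over 8 genes, of which Cd14, Csf1r and Cd68 reached 1 CPM. Neither the 6 T-cell markers nor the 5 erythroid markers found reached 1 CPM, and Cd3e, Cd4, Cd8a, Hba-a1 and Alas2 had no read in either library. The labels name 2 library kits without assigning them, so a kit difference and the construct cannot be told apart. In bulk RNA, more cells in S phase and more RNA per cell cannot be told apart either.

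Nearly all of the 38 listed genes were higher in the Klf2 library on all exon reads, mostly by less than 2-fold. The exceptions were a p53-linked reductase subunit, a dNTP-degrading enzyme and a salvage enzyme whose ratio was not distinguishable from 1. The directions of Nme2 and Shmt2 depended on the reads or the scaling used, and other genes of the same pathways went both ways, as given below. Ratios are CPM in the Klf2 library over CPM in BFP, with exact 95% intervals that cover counting error only. Among the 38 genes the chi-square of lane counts per degree of freedom reached 8.07 for Nme1 in Klf2 and 3.47 for Tk1 in BFP, so for such genes the intervals are too narrow. The interval lay above 1 for 35 of the 38 genes and below 1 for 2, against 37.1% and 37.3% of all 10850 measured genes. A ratio of at least 1.5 with an interval above 1 was seen for 22 of the 38 (57.9%), against 10.2% of all genes, and a ratio of 1/1.5 or less for none, against 13.9%. Scaled on the top quintile of genes by mean CPM, these counts were 12 higher and 2 lower (Rrm2b and Samhd1) of the 38, with 583 higher and 2227 lower of all genes. Rrm2b was past that limit too with no TMM scaling, at 0.632, and on reads across exon junctions, at 0.507. At least 2-fold higher were 2 of 38, Prps2 and Rrm1, against 2.45% of all genes, and 2 genes are too few to set this share apart from the background. That count was 0 when scaled on the top quintile, with 162 of all genes higher and 881 lower, and 11 when scaled on the bottom quintile, with 571 higher and 419 lower. None was 2-fold lower, against 5.67%. The median log2 ratio was 0.63 over the 38 genes and -0.01 over all measured genes. Added together, the 38 genes took 9250.5 CPM in the Klf2 library and 6320 CPM in BFP.

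Ratios over all genes were higher where read counts were higher, so the same genes were set beside the top quintile by mean CPM, a choice made after the values were seen. Of the 38 genes, 22 fell in that quintile and none in the lowest, and the median log2 ratio there was 0.73 over the 22 and 0.17 over all 2170 genes. A ratio of at least 1.5 was seen for 15 of the 22 (68.2%), against 14% of the quintile, and the interval lay above 1 for all 22, against 61.5%. At the 2-fold limit 1 of the 22 was higher, against 1.47%. None of the 22 had an interval below 1, against 29% of the quintile, or was lower by 1.5-fold (4.88%) or 2-fold (1.2%).

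**Figure D1:**
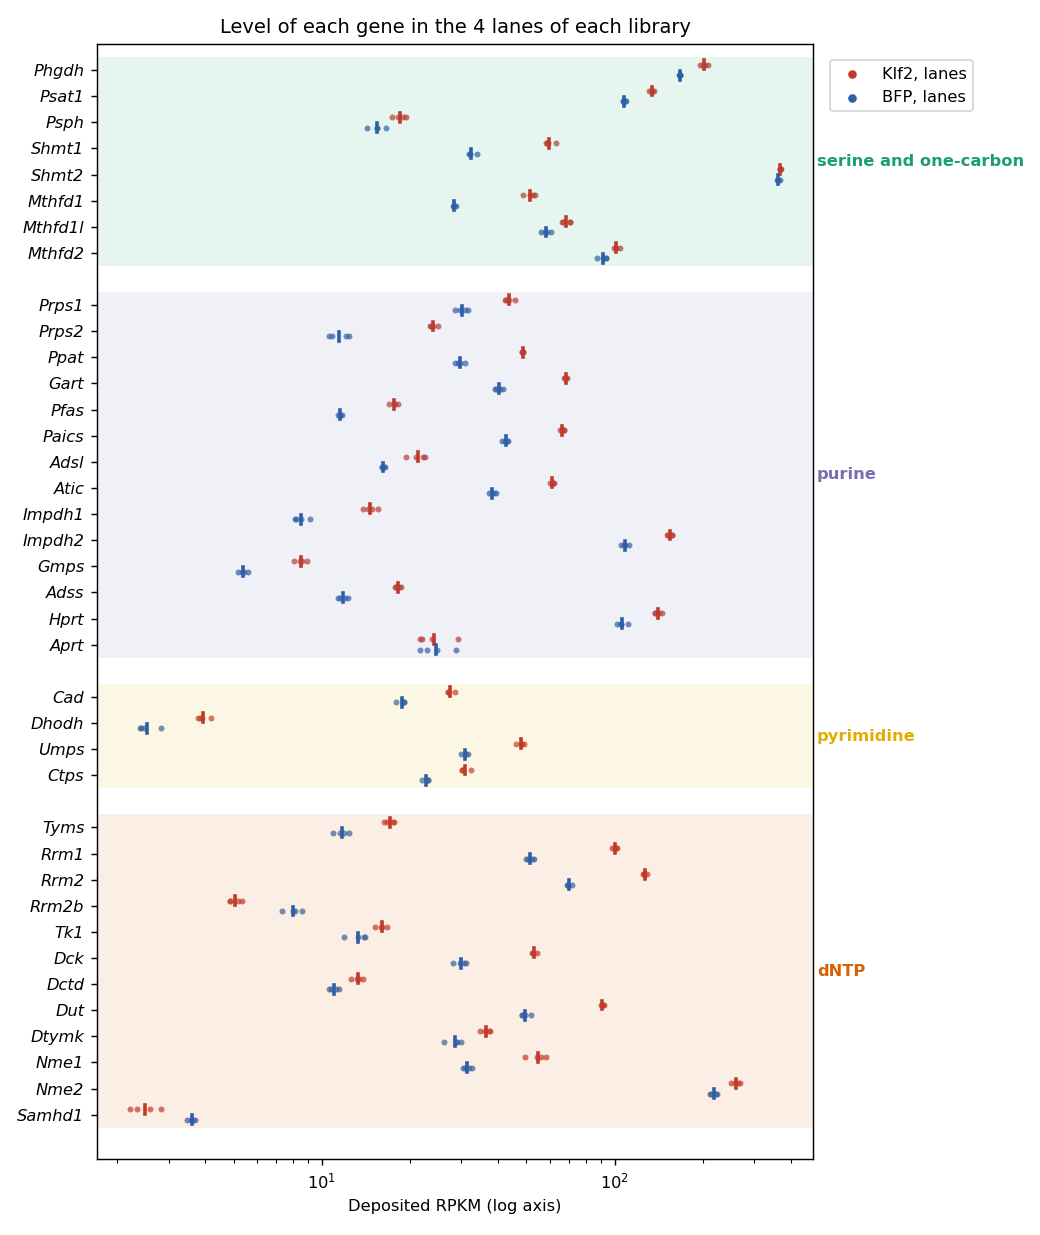
Deposited RPKM (log axis) of each gene in the 4 lanes of the Klf2 library (red, above) and of the BFP library (blue, below), grouped by pathway branch, with a bar at the mean of the lanes. The lanes of Klf2 lie above those of BFP for 34 genes, below them for Rrm2b and Samhd1, and overlap for Shmt2 and Aprt.

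In the deposited RPKM, which is scaled by exon length and by total reads of a lane, the lanes of the libraries did not overlap for 36 of the 38 genes. Lanes of a library share its RNA, so their spread is that of sequencing only. The Klf2 lanes were higher for 34, against 26.5% of all measured genes, and lower for 2, against 37.9%. The plot of levels by lane shows a range from Samhd1, at a mean of 2.49 RPKM in Klf2 and 3.59 RPKM in BFP, to Shmt2, at 368 RPKM in Klf2 and 363 RPKM in BFP. The exon length of the table joins the exons of all transcripts of a gene, so RPKM is low for genes with long joined exons such as Gmps, at 8.49 RPKM in Klf2 and 5.39 RPKM in BFP over 11125 bases.

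In exon reads, a pair of genes stood apart in the serine and one-carbon branch. The cytosolic folate enzymes Shmt1 and Mthfd1 were close to 2-fold higher in the Klf2 library, while the mitochondrial folate enzymes Shmt2, Mthfd2 and Mthfd1l and the serine-synthesis enzymes lay between 1.08 and 1.32. Shmt1, the cytosolic serine hydroxymethyltransferase (chromosome 11, 60788104 to 60811718, mm10), had lane values of 59.2, 63.2, 58.8 and 58.2 RPKM in Klf2, against 32.0, 32.0, 31.8 and 33.8 RPKM in BFP. Every Klf2 lane lay above every BFP lane, and the CPM ratio was 1.96 (1.89 to 2.04). Mthfd1, the cytosolic enzyme that interconverts folate one-carbon units (chromosome 12, 76255232 to 76319820), had 52.7, 51.6, 48.6 and 53.5 RPKM in Klf2, against 28.4, 28.3, 28.7 and 28.2 RPKM in BFP. Again the lanes did not overlap, and the ratio was 1.93 (1.85 to 2.02).

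Shmt2, the mitochondrial counterpart of Shmt1 (chromosome 10, 127517123 to 127522444), had 367, 368, 368 and 369 RPKM in the Klf2 lanes, against 367, 360, 362 and 361 RPKM in the BFP lanes. The lanes touched, and the ratio of 1.08 (1.06 to 1.10) turned to 0.961 when the libraries were scaled on the top quintile of genes by CPM. The RPKM of Shmt1 was 0.163 of that of Shmt2 in the Klf2 library and 0.0894 of it in BFP. Mthfd2, the mitochondrial methylenetetrahydrofolate dehydrogenase, had a ratio of 1.18 (1.15 to 1.21), and Mthfd1l, which releases formate in mitochondria, one of 1.25 (1.21 to 1.28). The phosphoglycerate dehydrogenase gene Phgdh, the entry to serine synthesis, was at 610 CPM in Klf2 and 475 CPM in BFP, a ratio of 1.28 with only 28.7% of its reads mapped uniquely. The next enzymes of that route, the aminotransferase Psat1 and the phosphatase Psph, had ratios of 1.32 and 1.28. The branch as a whole had a median log2 ratio of 0.36, the lowest of the 4 branches.

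The purine branch was higher along the whole route to IMP. The 8 genes from PRPP to IMP had ratios from 1.39 to 2.22. Of these, 7 were at least 1.5-fold higher, against 10.2% of all genes. When scaled on the top quintile this count was 4, with 583 of all genes higher. PRPP synthetase comes in near copies. Prps2 (chromosome X, 167346322 to 167382749) had 23.5, 23.6, 24.8 and 24.1 RPKM in the Klf2 lanes, against 10.6, 10.8, 12.1 and 12.4 RPKM in the BFP lanes. The lanes were well apart, with a ratio of 2.22 (2.09 to 2.36), the highest of the 38 genes with these settings. Prps1 had a ratio of 1.54 (1.45 to 1.62), so that the RPKM of Prps1 was 1.81 times that of Prps2 in Klf2 and 2.63 times in BFP.

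Ppat, the amidotransferase of the committed step, had a ratio of 1.74 (1.68 to 1.81). Its neighbour Paics, a bifunctional enzyme further along the route, had one of 1.66 (1.60 to 1.72). These genes lie head to head on chromosome 5 and overlap at their 5′ ends, Ppat from 76913249 to 76951578 and Paics from 76951307 to 76967509, and reads in the overlap cannot be assigned without strand. The trifunctional enzyme gene Gart had a ratio of 1.8, Pfas 1.63 and Atic, which completes IMP, 1.71. Adsl, used in the route to IMP and again in the route to AMP, was lower than these at 1.39 (1.32 to 1.47).

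Impdh1, Impdh2, Gmps and Adss, which act from IMP onwards, were each at least 1.5-fold higher, against 10.2% of all genes. Only Impdh1 was so when scaled on the top quintile, with 583 of all genes higher. The IMP dehydrogenase genes of the GMP branch had ratios of 1.84 (1.70 to 1.99) for Impdh1 and 1.51 (1.46 to 1.57) for Impdh2. Impdh2 was the more abundant, at 154 RPKM in Klf2 and 108 RPKM in BFP, while Impdh1 was at 14.6 RPKM in Klf2 and 8.46 RPKM in BFP. For Impdh2, 11.3% of reads mapped uniquely, with a ratio of 1.43. Gmps, which makes GMP, had a ratio of 1.68, and Adss, the first step towards AMP, 1.63. The salvage genes were nearer to 1. Hprt, which recovers hypoxanthine and guanine, had a ratio of 1.41 (1.36 to 1.47). Aprt, which recovers adenine, had 760 reads in Klf2 and 755 in BFP, and its ratio of 1.05 (0.946 to 1.16) was the only one of the 38 with an interval that included 1.

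The pyrimidine branch moved within a narrow band, with ratios from 1.43 to 1.65. Cad, whose protein carries the opening 3 activities of the route, had 27.0, 27.2, 27.0 and 28.5 RPKM in the Klf2 lanes, against 18.0, 19.1, 19.1 and 19.0 RPKM in the BFP lanes. The lanes did not overlap, and the ratio was 1.55 (1.4999 to 1.61). Dhodh, the mitochondrial dihydroorotate dehydrogenase, had 903 reads in Klf2 and 568 in BFP, a ratio of 1.65 (1.49 to 1.84). Umps, which makes UMP, had a ratio of 1.65 (1.59 to 1.72), and Ctps, which makes CTP from UTP, 1.43 (1.36 to 1.51).

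**Figure D2:**
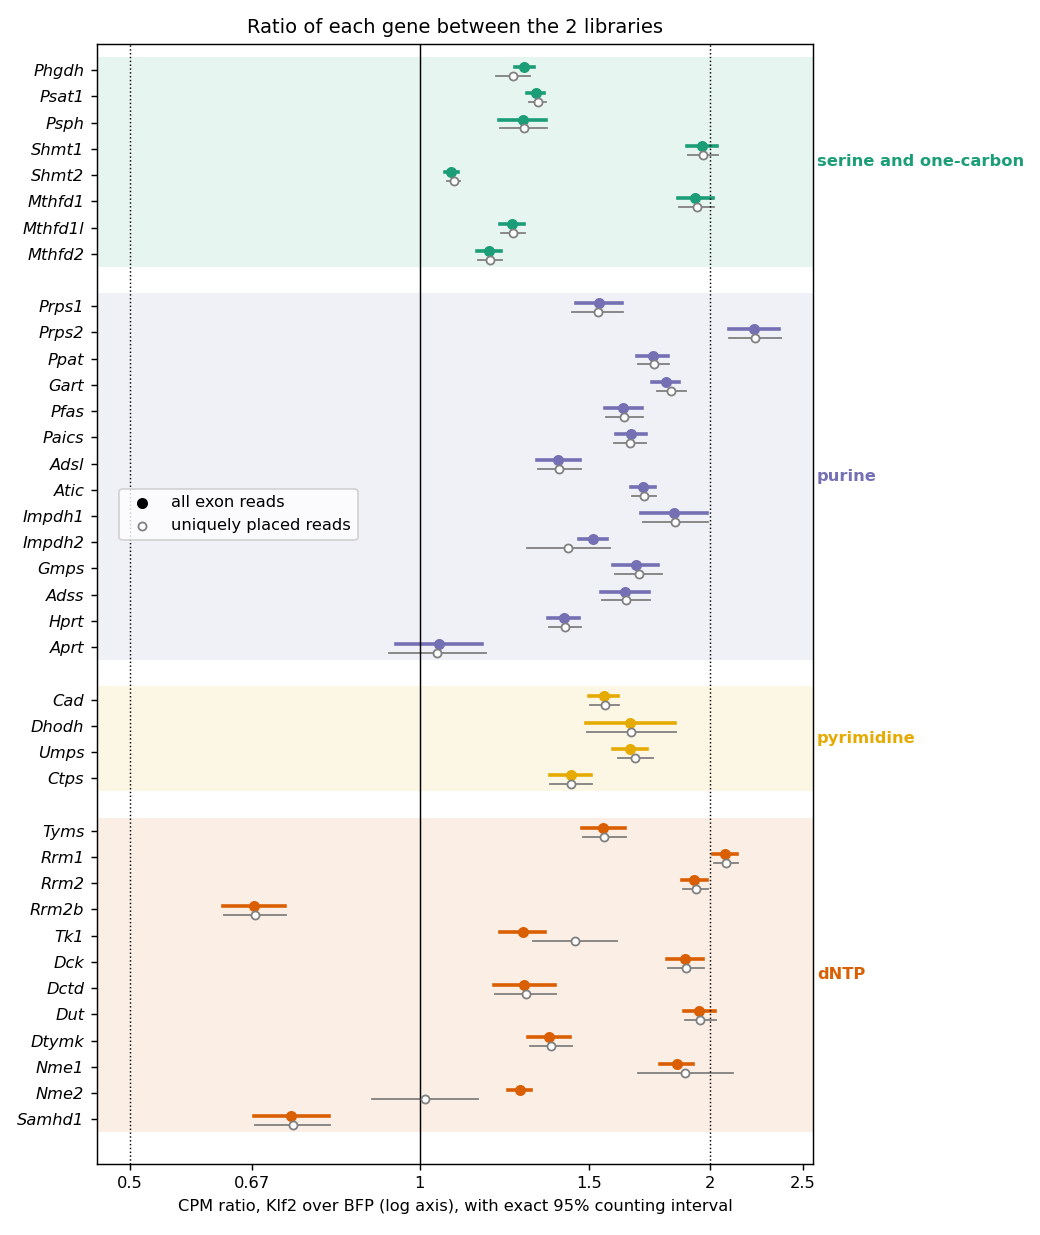
CPM ratio of the Klf2 over the BFP library (log axis) for each gene by branch, with exact 95% counting intervals, for all exon reads (filled) and uniquely placed reads (open); dotted lines mark 2-fold. Shmt1 and Mthfd1 stand apart from the rest of their branch, Prps2 and Rrm1 lie above 2, and Rrm2b and Samhd1 lie below 1.

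The dNTP branch held the strongest contrast between near copies. Rrm1, the large subunit of ribonucleotide reductase (chromosome 7, 102441695 to 102469771), had 101, 97.8, 100.1 and 102 RPKM in the Klf2 lanes, against 52.1, 53.1, 50.7 and 49.7 RPKM in the BFP lanes. The libraries were clearly apart, with a ratio of 2.08 (2.02 to 2.13). Rrm2, the small subunit used in S phase (chromosome 12, 24708241 to 24714146), had 126, 126, 129 and 125 RPKM in Klf2, against 69.6, 71.6, 69.5 and 68.6 RPKM in BFP. Its ratio was 1.93 (1.87 to 1.99), just under the 2-fold limit.

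Rrm2b, the alternative small subunit known as a p53 target (chromosome 15, 37923952 to 37961318), went the other way. It had 4.85, 5.35, 4.86 and 5.18 RPKM in the Klf2 lanes, against 7.997, 8.59, 7.33 and 8.07 RPKM in the BFP lanes. All Klf2 lanes lay below all BFP lanes, and the ratio was 0.673 (0.625 to 0.724). The RPKM of Rrm2 was 25.03 times that of Rrm2b in the Klf2 library and 8.73 times in BFP. Samhd1, which hydrolyses dNTPs (chromosome 2, 157097533 to 157135265), was the other lower gene, with 2.33, 2.83, 2.58 and 2.21 RPKM in Klf2, against 3.70, 3.63, 3.58 and 3.47 RPKM in BFP. Its lanes did not overlap either, and its ratio was 0.736 (0.673 to 0.805).

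The other dNTP genes were higher in the Klf2 library. Dut, which removes dUTP and yields the precursor of thymidylate, had a ratio of 1.95 (1.88 to 2.03), and the deoxycytidine kinase gene Dck one of 1.88 (1.81 to 1.97). Thymidylate synthase, encoded by Tyms, had a ratio of 1.55 (1.48 to 1.63). Smaller ratios were found for the thymidylate kinase gene Dtymk at 1.36, the deaminase gene Dctd at 1.28 and the thymidine kinase gene Tk1 at 1.28. The 29.2% of Tk1 reads that mapped uniquely gave a ratio of 1.45. Tk1 also overlaps Afmid in the annotation, and shared reads cannot be assigned without strand.

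The nucleoside diphosphate kinase genes Nme1 and Nme2 lie next to each other on chromosome 11 and share reads with near copies: 13.0% of Nme1 reads and 4.89% of Nme2 reads mapped uniquely. An annotated read-through gene spans both. Nme1 had a ratio of 1.85 (1.78 to 1.92) on all reads and 1.89 (1.69 to 2.11) on uniquely placed reads. Nme2 had a ratio of 1.27 (1.24 to 1.31) on all reads, but an interval of 0.891 to 1.15 on uniquely placed reads, so its direction is uncertain. In all, 8 of the 38 genes had under 90% uniquely mapped reads. With uniquely mapped reads alone the interval was above 1 for 34 genes, below 1 for 2 and included 1 for Aprt and Nme2.

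Reads outside exons gave a further readout of the same libraries. Gene reads minus exon reads, called intron reads here, had an interval above 1 for 28 of the 38 genes and below 1 for 3, against 28.4% and 27.4% of the 9844 genes with at least 20 such reads. In the top quintile by mean CPM the background was higher. There the interval lay above 1 for 17 of the 22 genes and below 1 for 1, against 901 and 475 of 2118. The median intron ratio was 1.31, against a median exon ratio of 1.55 for the same genes. The intron interval lay wholly below the exon interval for 19 genes, wholly above it for 4, and overlapped it for 15. Mthfd2, with 289 intron reads in Klf2 and 164 in BFP, had an intron ratio of 1.83 (1.51 to 2.23), and Mthfd1l one of 1.63 (1.54 to 1.71), both above their exon ratios. The intron medians were 1.63 for the 3 mitochondrial and 1.59 for the 2 cytosolic folate genes. With so few genes, and mitochondrial ratios from 0.838 to 1.83, these medians cannot show whether the groups stood apart in introns. Shmt2 had an intron ratio of 0.838 (0.775 to 0.907), below 1. Of the cytosolic genes, Shmt1 had one of 1.45 (1.36 to 1.56) and Mthfd1 one of 1.73 (1.59 to 1.88). Ndufa4l2 overlaps Shmt2 on the opposite strand, as Smcr8 overlaps Shmt1 and Ndufaf3 overlaps Impdh2. In the annotation a processed pseudogene and a small nuclear RNA gene overlap Mthfd1l on its own strand, as Gm43890 overlaps Mthfd2. Genes on the opposite strand overlap Mthfd1, and further overlaps are annotated for others of the 38 genes. The part of all these genes in the intron reads was not tested. Dck and Umps had the highest intron ratios, at 2.21 and 2.04, while Prps2, highest in exons, had 1.30 (1.10 to 1.53).

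**Figure D3:**
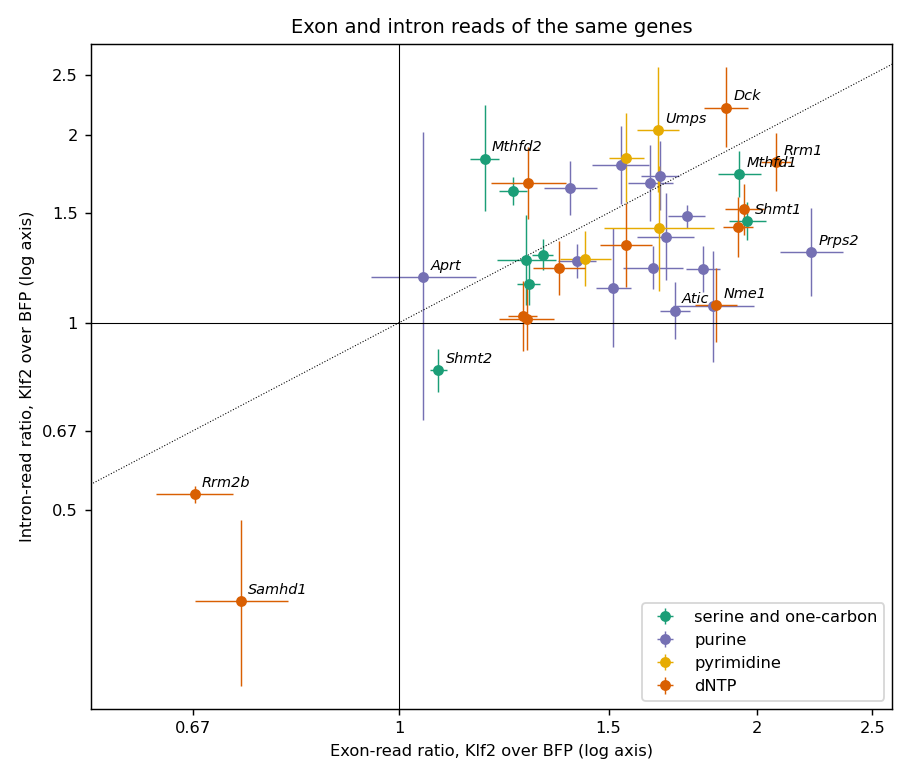
Exon-read ratio against intron-read ratio, Klf2 over BFP (both log axes), for the 38 genes, with exact 95% counting intervals and a dotted line of equal ratios. Most genes lie above 1 on both axes, Rrm2b and Samhd1 lie below 1 on both, and Shmt2 lies above 1 in exons and below 1 in introns.

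The genes that were lower in exons were lower in introns too. Samhd1 had 59 intron reads in Klf2 and 172 in BFP, a ratio of 0.357 (0.261 to 0.482). Rrm2b had 6020 intron reads in Klf2 and 11811 in BFP, a ratio of 0.530 (0.514 to 0.547), and its reads across exon junctions gave 0.507. A processed pseudogene and an antisense gene are annotated within Rrm2b, and their part in its intron reads was not tested. The 7 genes whose intron interval included 1 (Atic, Impdh1, Impdh2, Aprt, Tk1, Nme1 and Nme2) had intron ratios of at most 1.18.

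Promoter sequences were available for 35 of the 38 genes, as RefSeq windows of 250 bases before to 50 after an annotated start (GRCm38.p6, the assembly of mm10). Both strands were searched for the E-box CACGTG, the E2F words TTTCCCGC and TTTGGCGC, the KLF words CCACACCC, CCCCACCC and CCCCGCCC, and the ATF4 word TGATGNAA. The last of the KLF words is also a binding word of SP factors. A KLF word was present for 21 of the 35 genes (60.0%), against 46.6% of genes with at least 1 CPM and 29.8% of all 27025 genes with a window. By branch it was present for 9 of 13 purine genes, 8 of 11 dNTP genes, 2 of 3 pyrimidine genes and 2 of 8 serine and one-carbon genes. The E-box was present for 6 of 35 (17.1%), against 12.2% of genes with at least 1 CPM, an E2F word for 2 (5.71%), against 3.75%, and the ATF4 word for 1 (2.86%), against 2.76%. A match describes letters only, and genes with several windows had more room for one. Only the words as written were searched, so sequences that differ from a word by a letter, for E2F as for the others, were not counted. Ppat and Prps2 were the genes with an E2F word, and Ppat and Paics have windows that face each other.

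The promoters shown are those of the pair past 2-fold, Prps2 and Rrm1, and of the cytosolic folate pair, Shmt1 and Mthfd1, 5′ to 3′ on the strand of the gene, with matched words in capitals. Prps2 has an E2F word at +34 (window X, 167382700 to 167382999, minus strand). Rrm1 has a KLF word 97 bases before the start (chromosome 7, 102441445 to 102441744, plus strand). Shmt1 has a KLF word 32 bases before the start (chromosome 11, 60811216 to 60811515, minus strand). Mthfd1 has none of the words searched (chromosome 12, 76254982 to 76255281, plus strand). Any link of these words to the ratios was not tested.
Prps2: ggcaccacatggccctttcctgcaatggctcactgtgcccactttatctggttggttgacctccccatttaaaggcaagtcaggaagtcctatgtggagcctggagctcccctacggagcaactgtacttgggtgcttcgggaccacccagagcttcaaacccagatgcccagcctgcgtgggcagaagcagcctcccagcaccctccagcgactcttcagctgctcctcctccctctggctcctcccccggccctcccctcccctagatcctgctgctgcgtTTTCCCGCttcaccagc
Rrm1: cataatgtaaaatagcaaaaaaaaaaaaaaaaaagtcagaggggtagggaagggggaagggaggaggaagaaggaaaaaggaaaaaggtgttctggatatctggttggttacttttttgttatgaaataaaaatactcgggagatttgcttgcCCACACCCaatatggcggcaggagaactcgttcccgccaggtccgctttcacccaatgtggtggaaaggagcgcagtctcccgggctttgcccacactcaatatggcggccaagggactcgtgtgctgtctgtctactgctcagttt
Shmt1: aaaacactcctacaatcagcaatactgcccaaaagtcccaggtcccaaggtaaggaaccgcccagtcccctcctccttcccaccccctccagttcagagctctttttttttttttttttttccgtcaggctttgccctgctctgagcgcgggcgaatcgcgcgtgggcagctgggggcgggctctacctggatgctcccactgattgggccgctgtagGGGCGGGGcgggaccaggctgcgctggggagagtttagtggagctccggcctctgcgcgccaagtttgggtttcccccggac
Mthfd1: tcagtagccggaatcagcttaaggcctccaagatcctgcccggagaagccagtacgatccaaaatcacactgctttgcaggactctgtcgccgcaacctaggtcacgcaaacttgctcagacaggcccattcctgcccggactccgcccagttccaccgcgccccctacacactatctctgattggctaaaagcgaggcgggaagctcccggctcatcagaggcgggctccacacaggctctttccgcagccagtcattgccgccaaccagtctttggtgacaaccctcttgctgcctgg

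Other genes of the same pathways went both ways. Of 68 such genes, 66 were found and 47 measured, with 3 past the 2-fold limit upwards and 3 downwards, against 2.45% and 5.67% of all genes. The interval lay above 1 for 24 and below 1 for 14 of the 47, against 37.1% and 37.3% of all genes, and the median log2 ratio was 0.16. The genes past 2-fold included subunits of the glycine cleavage system, which feeds one-carbon units from glycine into mitochondrial folate. Gldc, its decarboxylase, was at 31.6 CPM in Klf2 and 9.49 CPM in BFP, a ratio of 3.33 (2.92 to 3.80), and Gcsh, its carrier protein, had a ratio of 2.19 (2.01 to 2.40). Amt, its aminomethyltransferase, was lower at 1.77 CPM in Klf2 and 3.79 CPM in BFP, a ratio of 0.467 (0.331 to 0.652).

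Ada, the adenosine deaminase gene, had a ratio of 2.68 (2.30 to 3.13). The folate transporter gene Slc46a1 had 33 reads in Klf2 and 89 in BFP, a ratio of 0.386 (0.251 to 0.581). Mthfs, a folate enzyme gene, had a ratio of 0.496 (0.383 to 0.639) on all reads. On the 33.3% of its reads that mapped uniquely this was 0.582, which is short of 2-fold. Nearest to the 2-fold limit among genes with at least 10 CPM were Pnp2, a purine nucleoside phosphorylase gene, at 1.99, and Tk2, the mitochondrial thymidine kinase gene, at 0.512. Further genes chosen by the same rule included Adssl1 at 1.78 and the adenosine kinase gene Adk at 1.63.

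**Figure D4:**
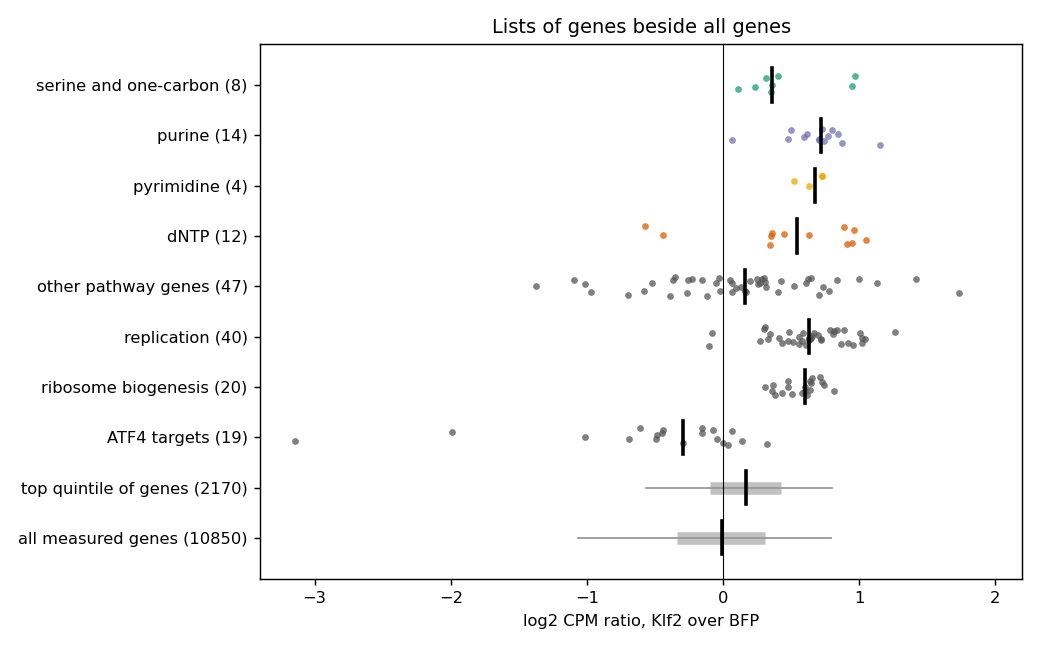
log2 CPM ratio, Klf2 over BFP, of the genes of each branch and of the lists set beside them, with the number of measured genes in brackets and a black bar at the median. For the top quintile by CPM and for all measured genes the thick bar spans the quartiles and the thin line the 5th to 95th percentile. The medians of the purine, pyrimidine and dNTP branches lie near those of replication and ribosome biogenesis, and the ATF4 list lies below 0.

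Set beside other growth-linked lists, the 38 genes had a median like that of DNA replication and ribosome biogenesis. For replication the median log2 ratio was 0.63, with 38 of 40 intervals above 1 and 25 genes past 1.5-fold. For ribosome biogenesis the median was 0.60, with 20 of 20 and 11 past 1.5-fold. An interval above 1 was seen for 37.1% of all genes and 61.5% of the top quintile. At least 1.5-fold higher were 10.2% and 14% in that order. ATF4 is known to drive serine-synthesis and mitochondrial folate genes. The list of its targets used here held Atf4 itself and none of the 38 genes. On that list the interval lay below 1 for 13 of 19 measured genes and above 1 for 3, Atf4 among them. The shares of all genes were 37.3% below and 37.1% above, and the median of the list was -0.30. Atf4 itself was at 944 CPM in Klf2 and 903 CPM in BFP, a ratio of 1.05 (1.03 to 1.06). Myc, a known activator of nucleotide synthesis genes, was at 291 CPM in Klf2 and 293 CPM in BFP, a ratio of 0.993 (0.964 to 1.02). E2f1, an S-phase factor, had a ratio of 1.16 (1.09 to 1.22). Scaling on the top quintile lowers each log2 ratio by 0.17. With it Atf4 falls below a ratio of 1, Myc lies further below it, and the interval of E2f1 includes 1. The part of cell-cycle state or of any of these factors in the ratios was not tested.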

How the data were processed

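Per the file headers, the authors' deposited counts give, for each gene and lane, all exon reads, uniquely placed exon reads, reads across exon junctions and all gene reads. The submitters' processing notes name CASAVA 1.8.2 and mm10. Aligner, annotation and use of strand were not given in the sources used here. The deposited RPKM was recomputed from these columns (largest difference 0.0258). Lane counts had a chi-square per degree of freedom of 1.27 in Klf2 and 1.29 in BFP on all exon reads (1.48 and 1.19 over the 38 genes) and 1.03 in each on unique reads, under a limit of 1.5, so the 4 lanes of a group were summed as n = 1.

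CPM used TMM factors (edgeR 4.0.16, R 4.3.3) of 0.969 for Klf2 and 1.03 for BFP. Ratios have exact (Clopper-Pearson) 95% intervals conditional on summed reads. These were checked on simulated counts that held sampling noise only. That check cannot show how well the intervals cover spread beyond sampling noise. With no read, a level of up to 0.0973 CPM is allowed in Klf2 and 0.0996 CPM in BFP (3 reads, before TMM scaling). Reads carry no molecular identifiers, so intervals and these limits cover counting error only. Measured genes had at least 1 CPM in either library. Intron reads were taken where both libraries together had at least 20. Other pathway genes are named when past 2-fold, plus the 6 furthest from 1 with at least 10 CPM. Some genes that this rule or the marker lists hold are not reported here. The genes and lists were chosen with earlier results of these data known. No set test was made. Protein sequences were not used here.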

Additional observations from a re-analysis of the deposited data

How the results depend on the processing

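Other settings moved sizes more than directions. The count of the 38 genes at least 2-fold higher was 2, and 1 with total-count scaling or with the deposited RPKM, 0 when scaled on the top quintile of genes by mean CPM, 11 when scaled on the bottom quintile and 22 at 1.5-fold. At 1.5-fold it was 12 on the top quintile, with 2 lower, and 18 with 1 lower by total-count scaling or deposited RPKM; junction reads also gave 1 lower. Combining 1.5-fold with other scalings was chosen after seeing the data. None was at least 2-fold lower under any setting tried. Leaving out a lane of both libraries gave 2 to 3 higher and 0 lower, with 267 to 281 of all genes higher and 632 to 654 lower. Scaling on the top quintile moved the median log2 ratio of all genes to -0.18, and scaling on the bottom quintile to 0.20. The top quintile gave medians of 0.47 for the 38 genes, 0.19 for serine and one-carbon, 0.55 for purine, 0.51 for pyrimidine and 0.37 for dNTP, and the bottom quintile 0.84, 0.56, 0.92, 0.88 and 0.74 in that order. Relative to all genes the medians stayed the same by construction. Only Shmt2 changed direction among genes whose interval excluded 1, at 0.961 on the top quintile. Without a lane the median of the 38 genes was 0.63 to 0.66, of serine and one-carbon 0.35 to 0.37, of purine 0.71 to 0.73, of pyrimidine 0.66 to 0.69 and of dNTP 0.52 to 0.55. Of all genes, 266 were higher and 615 lower. On the top quintile 162 were higher and 881 lower, and on the bottom quintile 571 higher and 419 lower, which turns the balance round. The higher count was 128 with deposited RPKM, 432 with no floor and 1112 at 1.5-fold. At a floor of 10 CPM it was 121, with 277 lower, and 1505 were lower at 1.5-fold. Depth was not limiting for these genes, the fewest reads being 568, for Dhodh in BFP. No paired analysis was possible because the replicate numbers are sequencing lanes of 1 library per group.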
